A study of Saccharomyces cerevisiae with 6 samples.

Results

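The Ehrlich pathway is the route by which yeast turns branched-chain and aromatic amino acids into fusel alcohols, and the aroma ester genes encode the enzymes that form or cleave volatile esters. An aminotransferase first removes the amino group of leucine, valine, isoleucine, phenylalanine or tyrosine, a decarboxylase converts the resulting keto acid into an aldehyde, and an alcohol dehydrogenase reduces the aldehyde to an alcohol such as isoamyl alcohol or phenylethyl alcohol. Alcohol acetyltransferases then form acetate esters such as isoamyl acetate, which smells of banana, while acyltransferases form the fruity ethyl esters of medium-chain fatty acids, and an esterase hydrolyses acetate esters again. In wine fermentation these compounds make up much of the aroma that yeast itself produces.

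A total of 10 genes of these steps were chosen by name and not by their measured values, and each was read by 1 probe. Earlier results of these data were known when they were chosen. They are BAT1, BAT2, ARO9, ARO10 and the activator gene ARO80 of the Ehrlich pathway, and ATF1, ATF2, EEB1, EHT1 and IAH1 of ester metabolism. All 10 were found among the 6248 genes and unnamed probes that were tested. Their RNA was measured on 6 mono-color arrays, with 3 cultures for wild type 59A and 3 for 59A PDR8-S288c. The labels call the 3 samples of each strain biological replicates.

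59A is a haploid MATa, ho derivative of the industrial wine strain EC1118. In 59A PDR8-S288c the PDR8 gene, which encodes a zinc cluster transcription factor linked to drug resistance, was deleted with a hygromycin cassette and then replaced by the allele of the laboratory strain S288c. The replacement carried a loxP-flanked kanMX4 cassette in the terminator of PDR8. The methods describe no removal of the cassette and do not give the number of clones, so the allele, the cassette and a clone cannot be told apart. Both strains fermented a synthetic must with 425 mg/l of assimilable nitrogen and were sampled in stationary phase at 66 g/l of CO2 released, which is 70% of fermentation progress. The comparison asks whether the PDR8 allele alters expression late in wine fermentation.

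The deposited values are log2 spot intensities after quantile normalization, with background at 5.3 and spot saturation at 16, and array medians lay between 8.06 and 8.07. QDR2, a multidrug transporter gene under the control of Pdr8p, was between 7.57 and 7.68 log2 units in wild type cultures and between 9.71 and 9.96 with the S288c allele, so each array carried the QDR2 level of its strain label. PDR8 itself was at 7.21 and 7.26 log2 units in wild type replicates 1 and 2 and at 6.76, 6.77 and 6.7 in 59A PDR8-S288c. The difference was -0.49 log2 units (adjusted p = 0.026 from limma, described below), and it passed 0.05 in 8 of 15 alternative settings. On the array of wild type replicate 3, 32.9% of the probes lack a value, among them ATF1 and EEB1, which therefore compare 2 wild type cultures with 3 of 59A PDR8-S288c. From the dimmest to the brightest class of probes, the share without a value stayed between 31.4% and 34.0%. This array also stood furthest from the others of its strain, with a median absolute deviation of 0.102 log2 units from their mean, against 0.054 to 0.0716 on the other 5 arrays. Two-sided exact permutation tests of 3 cultures against 3, or of 2 against 3, cannot give a p below 0.1, and the number of arrays limits the precision.

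No member differed between the strains at an adjusted p under 0.05 from limma (linear model with moderated variance, Benjamini-Hochberg adjustment over all 6248 features). All 10 were detected, and the lowest single value, 6.36 log2 units for ATF2, was above the background of 5.3. Differences are given as log2 fold changes, 59A PDR8-S288c minus wild type, and ran from -0.23 for BAT1 to 0.21 for EHT1. The count of 0 among 10 stands beside 1.54% of all features called, and at an adjusted p under 0.01 it stands beside 0.048%. The 1.54% are 96 features, 32 higher and 64 lower. Of the 64 lower ones, 45 were ribosomal protein genes (symbols that start with RPL or RPS and a digit). At an unadjusted p under 0.05 there were 4 members, BAT1, ARO9 and ARO10 on the lower side and EHT1 on the higher side, while 18.1% of all features passed that level (8.1% lower and 9.99% higher). The 95% intervals of the 10 differences reached from -0.43 to 0.55, which is from 0.741-fold to 1.46-fold on the linear scale. Larger differences than these lie outside the intervals, and 4 of the intervals, which are not adjusted for the number of features, left out 0. Of the 10 genes, 9 had a strain difference smaller than the wider of their own ranges between cultures of a strain, ARO9 being the exception. How many of all features show this was not counted, so it does not set these genes apart. The residual SD within strains was above the median of all features, 0.0683 log2 units, in 8 of the 10 genes.

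**Figure D1:**
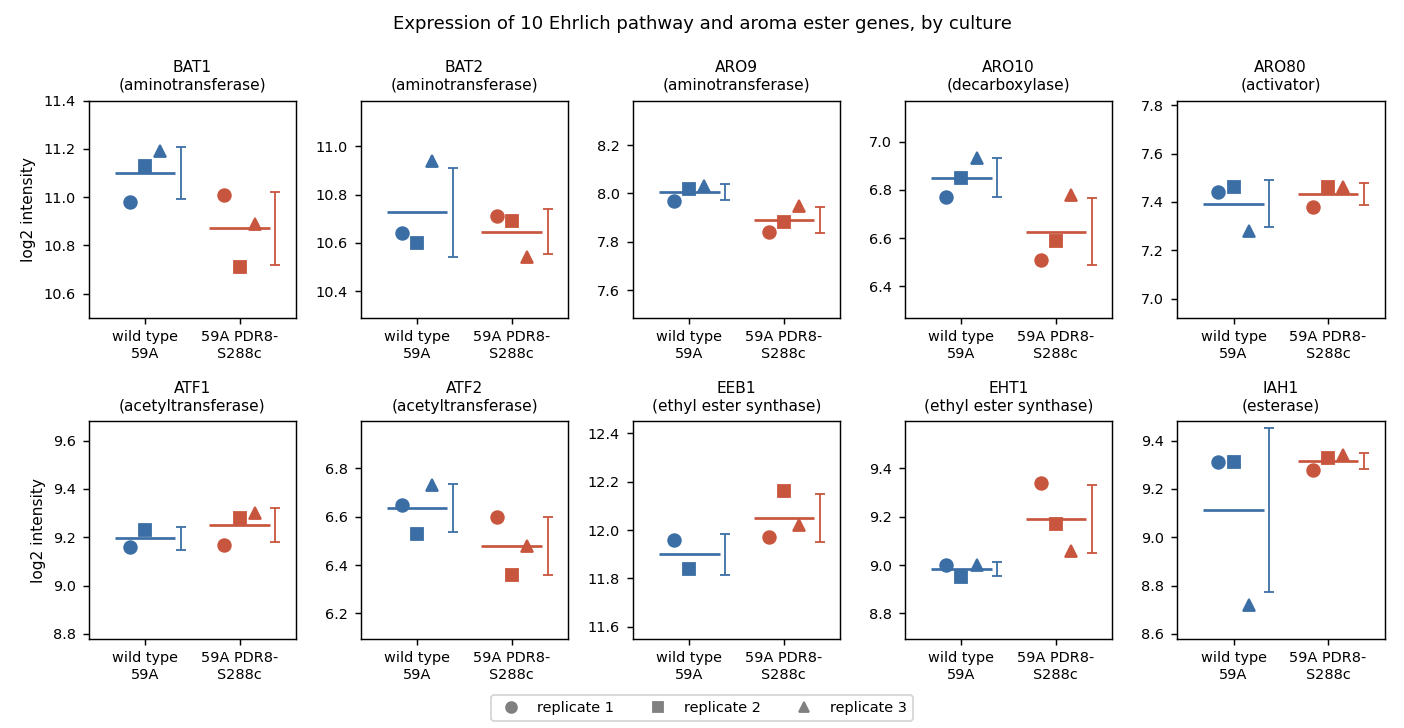
Log2 intensity of the 10 genes in each culture, with wild type 59A in blue, 59A PDR8-S288c in red and a symbol for each replicate number. Horizontal lines are means and error bars are SD (n = 3, or n = 2 for ATF1 and EEB1 in the wild type), each panel spans the same height in log2 units, and the strains are seen to overlap in all genes but ARO9, EEB1 and EHT1.

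The aminotransferases catalyse the entry into the pathway. BAT1 (YHR208W) encodes the mitochondrial branched-chain aminotransferase, which mainly serves synthesis, and had an expression of 10.98, 11.13 and 11.19 log2 units in wild type replicates 1, 2 and 3. In 59A PDR8-S288c it was at 11.01, 10.71 and 10.89 in the same order. Replicate 1 of 59A PDR8-S288c lay above wild type replicate 1, so the strains overlapped. The means were 11.10 ± 0.11 (SD, n = 3) and 10.87 ± 0.15 (SD, n = 3), which is a difference of -0.23 log2 units (limma SE 0.09 and adjusted p = 0.224). It was -0.15 without replicate 2 of 59A PDR8-S288c and -0.11 with slide position (subarrays 1 to 4 against 5 to 8) as a covariate. With this covariate, wild type replicate 1 is the only wild type culture that 59A PDR8-S288c is compared with.

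BAT2 (YJR148W) encodes the cytosolic branched-chain aminotransferase, the form tied to the breakdown of leucine, valine and isoleucine. It was at 10.64, 10.60 and 10.94 log2 units in wild type cultures and at 10.71, 10.69 and 10.54 in 59A PDR8-S288c. Wild type replicate 3 was the highest of the 6 and the other 5 cultures lay close together. The difference was -0.08 log2 units (limma SE 0.10 and adjusted p = 0.709), and it was 0.03 without wild type replicate 3. In log2 units, BAT2 minus BAT1 changed by 0.15 between the strains, with overlapping cultures (two-sided exact permutation p = 0.5), and unequal responses of the paralogues were not detectable.

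ARO9 (YHR137W) encodes the aromatic aminotransferase II, which is induced by aromatic amino acids. Its values were 7.97, 8.02 and 8.03 log2 units in wild type cultures, and with the S288c allele they were 7.84, 7.88 and 7.95. The strains did not overlap, all wild type cultures being the higher, by 0.03 log2 units at the nearest (two-sided exact permutation p = 0.1, the floor of this design). This amounts to -0.12 log2 units (limma SE 0.05 and adjusted p = 0.234), or 7.90% lower on the linear scale. ARO9 had the smallest spread within strains among the 10 genes, with a residual SD of 0.0436 log2 units. ARO8, the gene of the general aromatic aminotransferase I, differed by -0.04 log2 units (limma SE 0.06 and adjusted p = 0.771) over 2 wild type cultures and 3 of 59A PDR8-S288c.

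ARO10 (YDR380W) encodes a decarboxylase of phenylpyruvate and other keto acids. It was at 6.77, 6.85 and 6.93 log2 units in wild type cultures and at 6.51, 6.59 and 6.78 in 59A PDR8-S288c. Replicate 3 of 59A PDR8-S288c just exceeded wild type replicate 1, and the other cultures with the S288c allele were below every wild type culture. The means were 6.85 ± 0.08 (SD, n = 3) and 6.63 ± 0.14 (SD, n = 3), a difference of -0.22 log2 units (limma SE 0.08 and adjusted p = 0.199). This was -0.14 with slide position as a covariate, which leaves wild type replicate 1 as the only wild type culture compared. ARO80 (YDR421W) encodes the zinc cluster activator that switches on ARO9 and ARO10 in the presence of aromatic amino acids. Its own RNA was at 7.44, 7.46 and 7.28 log2 units in wild type cultures and at 7.38, 7.46 and 7.46 in 59A PDR8-S288c, and the range with the S288c allele lay within that of the wild type. The strain difference was 0.04 log2 units (limma SE 0.06 and adjusted p = 0.794), and it was -0.02 without wild type replicate 3.

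**Figure D2:**
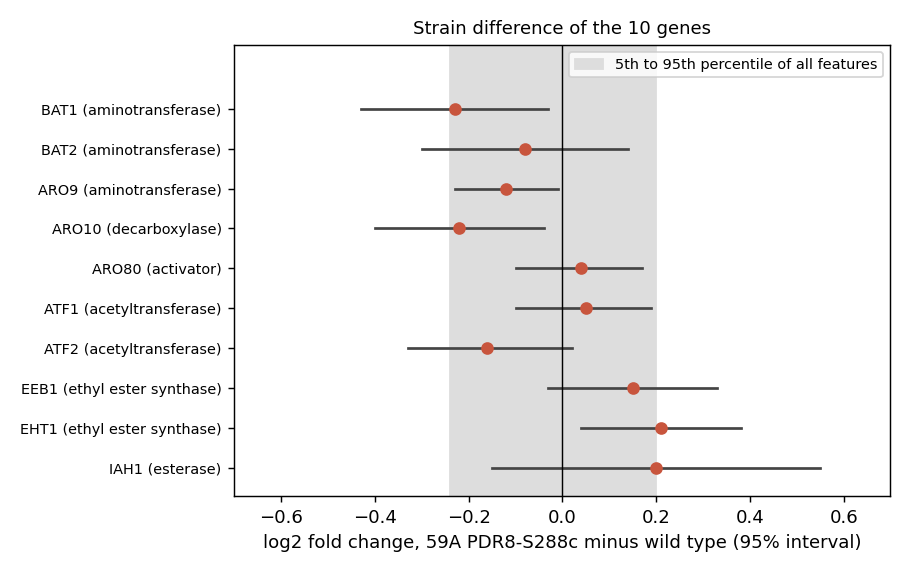
Log2 fold change (59A PDR8-S288c minus wild type) of the 10 genes as points, with 95% intervals from limma as lines, ordered by their role in the pathway. The grey band spans the 5th to 95th percentile of all features (-0.24 to 0.20), and the points lie between -0.23 and 0.21.

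Alcohol acetyltransferases join acetyl-CoA to fusel alcohols. ATF1 (YOR377W), the main acetyltransferase gene, was at 9.16 and 9.23 log2 units in wild type replicates 1 and 2 and at 9.17, 9.28 and 9.30 in 59A PDR8-S288c. The whole range over these 5 cultures was 0.13 log2 units. Between the strains it differed by 0.05 log2 units (limma SE 0.06 and adjusted p = 0.725), with a 95% interval from -0.10 to 0.19, and by 0.01 to 0.09 when single arrays were left out. OLE1, the fatty acid desaturase gene that is regulated together with ATF1 by oxygen and unsaturated fatty acids, was between 15.95 and 15.99 log2 units on all arrays, next to spot saturation, so a difference in it could not be measured here.

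ATF2 (YGR177C) encodes the second acetyltransferase, which also acetylates sterols. It was at 6.65, 6.53 and 6.73 log2 units in wild type cultures and at 6.60, 6.36 and 6.48 in 59A PDR8-S288c. The strains overlapped, and the difference was -0.16 log2 units (limma SE 0.08 and adjusted p = 0.323), or -0.10 without replicate 2 of 59A PDR8-S288c. The 3 highest cultures were wild type replicates 1 and 3 and replicate 1 of 59A PDR8-S288c, on subarrays 8, 2 and 6. The same cultures had the highest median over the 14 ergosterol genes measured on all 6 arrays, at 11.38, 11.30 and 11.26 log2 units, against 10.86 in wild type replicate 2 and 10.85 and 10.95 in replicates 2 and 3 of 59A PDR8-S288c. All 24 ergosterol genes were measured and 0 of them were called, with 0 at an unadjusted p under 0.05 from limma and a median log2 fold change of -0.19. This match was seen in the values after they were known, and the part of sterol state or slide position in the level of ATF2 was not tested. Ribosomal protein genes, unlike the ergosterol genes, separated the strains. Their median over the 86 genes measured on all 6 arrays was 9.7, 9.86 and 9.82 log2 units in wild type cultures. In 59A PDR8-S288c it was 9.34, 9.25 and 9.51, and the median log2 fold change of all 129 was -0.38. The part of this difference in the levels of the members was not tested.

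EEB1 and EHT1 encode the acyltransferases that form ethyl esters of medium-chain fatty acids, such as ethyl hexanoate and ethyl octanoate. EEB1 (YPL095C), the main of these genes, was at 11.96 and 11.84 log2 units in wild type replicates 1 and 2 and at 11.97, 12.16 and 12.02 in 59A PDR8-S288c. The cultures with the S288c allele were above both wild type cultures measured, by 0.01 log2 units at the nearest. Their means differed by 0.15 log2 units (limma SE 0.07 and adjusted p = 0.343). This fell to 0.09 without replicate 2 of either strain. With slide position as a covariate it was also 0.09, but this is not a separate check. Like the fit without wild type replicate 2, it compares 59A PDR8-S288c with wild type replicate 1 alone.

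EHT1 (YBR177C) was at 9.0, 8.95 and 9.0 log2 units in wild type cultures and at 9.34, 9.17 and 9.06 in 59A PDR8-S288c. Every culture with the S288c allele exceeded every wild type culture, by 0.06 at the nearest (two-sided exact permutation p = 0.1, the floor of this design). They were also spread further, with an SD of 0.14 against 0.03 in the wild type. The difference in the means was 0.21 log2 units (limma SE 0.07 and adjusted p = 0.191), or 15.6% higher on the linear scale, and it was 0.13 without replicate 1 of 59A PDR8-S288c. It was the lowest adjusted p among the 10 genes and did not pass the threshold. Among the 8 members measured on all 6 arrays, ARO9 and EHT1 were those without overlap, which is 25% against 24.6% of all such features.

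IAH1 (YOR126C) encodes the isoamyl acetate-hydrolysing esterase. It was at 9.31, 9.31 and 8.72 log2 units in wild type cultures and at 9.28, 9.33 and 9.34 in 59A PDR8-S288c. A single culture, wild type replicate 3, was 0.59 log2 units below the mean of the other wild type cultures, and the remaining 5 lay between 9.28 and 9.34. Its strain difference was 0.20 log2 units (limma SE 0.15 and adjusted p = 0.522), and it was 0.00 (limma adjusted p = 0.979) without that array. With slide position as a covariate it was 0.0 as well. This fit compares 59A PDR8-S288c with wild type replicate 1 alone, so it also sets wild type replicate 3 aside. The residual SD of IAH1 within strains, 0.242 log2 units, was higher than that of 97.6% of all features. IAH1 was the only member measured on all 6 arrays whose values spanned over 0.5 log2 units. The 3 genes whose values, minus their mean over the arrays, differed least from those of IAH1 were SNQ2, STP1 and YDR444W, with mean absolute differences of 0.0166, 0.0194 and 0.0248 log2 units over the 6 arrays. SNQ2 encodes a multidrug transporter and STP1 an activator of amino acid permease genes. In wild type replicate 3 they were at 8.40, 8.48 and 8.38 log2 units, and on the other arrays each was at 8.89 or above. Of the 4190 features measured on all arrays, 16 were more than 0.5 log2 units below both other wild type arrays in this culture and 6 were as far above. Whether this is the culture or the array was not tested.

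**Figure D3:**
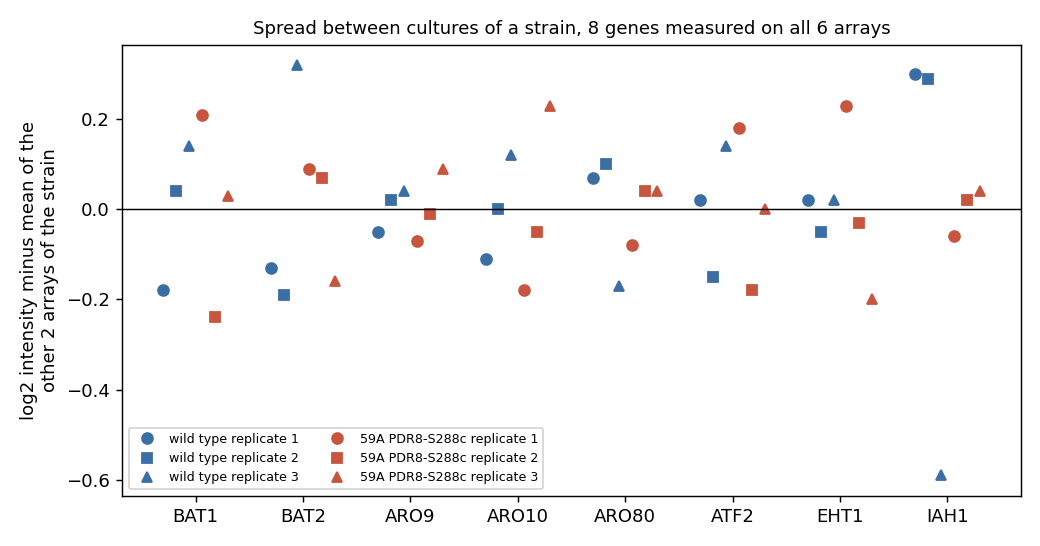
Log2 intensity of each array minus the mean of the other 2 arrays of its strain, for the 8 genes measured on all 6 arrays (blue wild type, red 59A PDR8-S288c, a symbol for each replicate number). IAH1 in wild type replicate 3 lies at -0.59, and the other points are between -0.24 and 0.32.

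The steps around these genes were read through 6 further lists, of which 62 of 63 genes were measured. MGL2, a relative of EEB1 and EHT1, was not matched to a probe and was not analysed here. Of the 62 genes, 0 passed an adjusted p under 0.05 from limma, and 14 (22.6%) passed an unadjusted p under 0.05, 7 higher and 7 lower, beside 18.1% of all features. Their median log2 fold change was 0.01, equal to that of all features, and that of the 10 members was -0.02.

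Of 16 genes of other Ehrlich pathway steps, 0 were called, with a median of 0.00. The largest differences were those of PDC5, an isoform of pyruvate decarboxylase that also acts on keto acids of amino acids, and of ADH6, a broad alcohol dehydrogenase. PDC5 was at 11.48, 11.56 and 11.71 log2 units in wild type cultures and at 11.36, 11.23 and 11.39 in 59A PDR8-S288c, a difference of -0.26 log2 units (limma SE 0.07 and adjusted p = 0.121). The cultures did not overlap, as in ARO9. ADH6 likewise differed by -0.26 log2 units, but with an SE of 0.20 (limma adjusted p = 0.537) and a span from -0.44 to -0.09 when single arrays were left out. ADH5, another alcohol dehydrogenase gene, did not overlap either and was the higher with the S288c allele, by 0.21 log2 units (limma SE 0.06 and adjusted p = 0.105). These 2 genes without overlap are 12.5% of the list, beside 28.1% of all features. ADH1, the main alcohol dehydrogenase gene, was between 15.94 and 16 log2 units, at saturation, so a difference in it could not be measured.

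Among 10 genes of branched-chain amino acid synthesis, whose keto acids feed the same alcohols, 0 were called and the median was 0.01. ILV6, the regulatory subunit of acetolactate synthase, differed by 0.27 log2 units (limma SE 0.07 and adjusted p = 0.113). The mitochondrial carrier gene OAC1 differed by -0.33 log2 units (limma SE 0.13 and adjusted p = 0.243). Among 7 genes of aromatic amino acid synthesis, 0 were called. The isoenzyme genes of the first step, ARO3 and ARO4, had log2 fold changes of 0.20 (limma SE 0.07 and adjusted p = 0.218) and -0.19 (limma SE 0.08 and adjusted p = 0.28). Wild type replicate 3 has no value for ARO3, and in ARO4 the strains overlapped.

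Of 6 permease genes for branched-chain and aromatic amino acids, 0 were called, while 4 (66.7%) passed an unadjusted p under 0.05 from limma (1 higher and 3 lower), beside 18.1% of all features. No test of the list was made. BAP3, a permease gene for branched-chain amino acids, was at 6.93 and 7.41 log2 units in wild type replicates 1 and 2 and at 6.63, 6.53 and 6.78 in 59A PDR8-S288c. The difference was -0.53 log2 units (limma SE 0.14 and adjusted p = 0.125). AGP1, a broad amino acid permease gene, showed a difference of -0.38 log2 units (limma SE 0.11 and adjusted p = 0.134). Wild type replicate 3 has no value for either gene, and both differences moved with the wild type array left out. BAP3 was at -0.77 without wild type replicate 1 and -0.29 without replicate 2, and AGP1 at -0.52 and -0.23. GAP1, the general amino acid permease gene, showed one of 0.06 log2 units (SE 0.07).

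Of 12 regulator genes, 0 were called. GAT1, a GATA activator of nitrogen catabolite repressed genes, was at 11.24, 11.33 and 11.71 log2 units in wild type cultures and at 11.00, 11.07 and 11.06 in 59A PDR8-S288c, without overlap (-0.38 log2 units, limma SE 0.11 and adjusted p = 0.135). Its difference was -0.24 without wild type replicate 3. In this list 2 genes (16.7%) did not overlap between the strains, beside 28.1% of all features. ROX1, a repressor of hypoxic genes, had the largest difference, -1.09 log2 units, but with an SE of 0.61 (limma adjusted p = 0.395) and a span from -1.75 to -0.69 when single arrays were left out. Of 11 measured genes of acyl-CoA and acetyl-CoA supply, 0 were called. ACC1, acetyl-CoA carboxylase, differed by 0.24 log2 units (limma SE 0.08 and adjusted p = 0.182) and ACS1, an acetyl-CoA synthetase gene, by 0.17 log2 units (limma SE 0.06 and adjusted p = 0.177). Wild type replicate 3 has no value for ACS1. When single arrays were left out, ACC1 ran from 0.16 to 0.32 and ACS1 from 0.16 to 0.21.

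**Figure D4:**
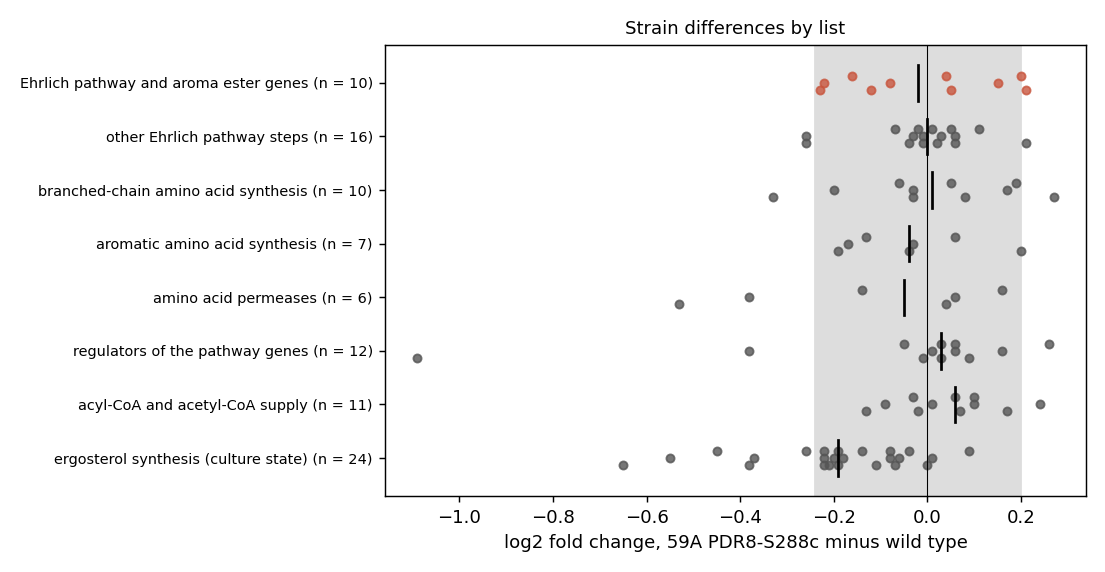
Log2 fold change (59A PDR8-S288c minus wild type) of each gene by list, with the 10 members in red and the other lists in grey, and vertical bars at the median of each list. The grey band spans the 5th to 95th percentile of all features (-0.24 to 0.20), and list medians lie between -0.19 for the ergosterol genes and 0.06 for acyl-CoA and acetyl-CoA supply.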

How the data were processed

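Labeled cRNA of 6 cultures was hybridized to Agilent mono-color arrays on 1 slide (wild type on subarrays 8, 1 and 2, 59A PDR8-S288c on 6, 7 and 5, for replicates 1, 2 and 3). The authors took GenePix spot-median intensities, normalized them by the quantile method with limma in R 2.13.1, per the methods over a larger array set, and deposited log2 values. These were used without further scaling. Of 6271 probes, 5220 carry 1 gene symbol and 1051 are not named here, and of genes with several probes (22) the brightest was used. The strain comparison used limma 3.58.1 under R 4.3.3 (no trend, no block) and was checked on simulated data. These had independent noise and changes larger than any member difference, so the check does not speak to the detection of smaller ones. Named were all 10 members and, in each other list, genes past an adjusted p under 0.05 or otherwise the 2 with the largest difference. ARO8, ADH1, ADH5, OLE1, GAP1 and PDC6 are named outside this rule, after their values were seen. Members, lists and rules were chosen with earlier results of these data known. For 2 samples of 59A PDR8-S288c, replicate numbers in titles and descriptions differ, and titles were used. Other settings tried were centring on the median, repeated quantile normalization, filters on dim or incomplete probes, other variance models, probe means, replicate blocks, slide position and leaving out each array. Promoter motifs and protein identities were not analysed here.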

Additional observations from a re-analysis of the deposited data

How the results depend on the processing

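Of the 10 members and of the 62 genes of the other pathway lists, 0 passed an adjusted p under 0.05 from limma in each of the 16 alternatives, with adjusted p of the members between 0.112 and 0.999. Of 158 member values under these alternatives, 154 did not change sign. Part of this count was fixed in advance. The probe filters, the trended robust variance and the probe means could not move the difference of a member. Nor could the replicate blocks for members measured on all 6 arrays. The 154 include IAH1, which was at 0.0 log2 units with slide position as a covariate and without wild type replicate 3. The exceptions were BAT2, at 0.01 log2 units with slide position as a covariate and -0.14 to 0.03 on leaving out single arrays, and ARO80, at -0.01 and -0.02 to 0.07 in the same settings. Both changed sign with slide position, which sets subarrays 1 to 4 against 5 to 8 and leaves only 1 wild type culture (subarray 8) in the class that holds all of 59A PDR8-S288c, and on leaving out wild type replicate 3. The number of features past the threshold over the whole array was 96, against 152 under the trended robust variance, 208 under array weights and 6 under slide position. On leaving out single arrays it ranged from 3 to 90. It was 3 on omitting replicate 1 or 2 of 59A PDR8-S288c or wild type replicate 2, 13 on omitting wild type replicate 1 and 48 on omitting replicate 3 of 59A PDR8-S288c. With the replicate number as a block it was 19 by the titles and 3 by the descriptions. Cultures with the same number in the titles deviated from their strain means with correlations of 0.169, 0.339 and -0.427 over 4190 features. By the descriptions the correlations were -0.0526, -0.686 and -0.427. By the titles, 2 of 6 arrays correlated best with their own number, so the numbers were not taken as pairs. The cause of these changes was not tested. ADH1 and OLE1 lay at spot saturation, which hides differences in them.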

Other observations

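Several genes of the wider pathway differed more between cultures of a strain than between strains. How many of all features do so was not counted. ROX1 was at 8.74, 7.63 and 9.40 log2 units in the wild type and at 8.81, 6.95 and 6.72 in 59A PDR8-S288c, for replicates 1, 2 and 3. ADH6 was at 8.59, 8.20 and 8.91 log2 units in the wild type and at 8.64, 8.24 and 8.04 in 59A PDR8-S288c. In both genes the 3 highest cultures were wild type replicates 1 and 3 and replicate 1 of 59A PDR8-S288c, the cultures that were also highest in ATF2 and in the median of the ergosterol genes. Of the ergosterol genes, IDI1, isopentenyl diphosphate isomerase, had the largest strain difference (log2 fold change -0.65, SE 0.40), with ERG6, sterol methyltransferase, next (-0.55, SE 0.35). IDI1 was at 10.68, 9.58 and 10.92 log2 units in the wild type and at 10.44, 9.47 and 9.33 in 59A PDR8-S288c. In PDC6, a minor pyruvate decarboxylase gene, the highest values were 10.09 in wild type replicate 3 and 9.87 in replicate 1 of 59A PDR8-S288c, while the other 4 cultures were between 9.56 and 9.65. These patterns were picked after the values were seen.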
